A study of Mus musculus with 11 samples.

Results

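Tumor necrosis factor (Tnf) and 9 genes of the NF-κB system were followed in langerin-DTR mice, in epithelium taken from the gingiva. The 9 genes were the IκB genes Nfkbia, Nfkbib, Nfkbie and Nfkbiz, the ubiquitin-editing enzyme gene Tnfaip3, and the subunit genes Nfkb1, Nfkb2, Rel and Relb. The rows were taken by gene symbol from the deposited table of normalized counts, so these are 10 of 19170 genes with values, and each of the 10 symbols was found in 1 row.

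The epithelium came from 5 mice given PBS and 6 mice given diphtheria toxin (DT), all langerin-DTR, in which the receptor for the toxin is driven by langerin and DT therefore kills langerin+ cells such as Langerhans cells (LCs). The mice were injected at 17, 24 and 31 days of age, and the epithelium was taken from adults, which the methods give as 8 weeks old and male. For the sequencing, the methods name 8 weeks in a comparison of ages, not of DT with PBS. The reporting summary states that the findings hold for both sexes. The PBS mice carry the same transgene, and no mouse without it was given DT. The paper reports, from flow cytometry, that LCs were absent at weaning and had gradually regained their normal frequencies by adulthood. The comparison therefore asks how the adult epithelium differs after an earlier depletion of LCs around weaning, and not how it differs while LCs are missing.

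NF-κB is a family of dimeric transcription factors. In resting cells the dimers are held in the cytoplasm by IκB proteins, and signals from receptors such as those for TNF activate the IκB kinases, which mark IκB for degradation and let the dimers enter the nucleus. Several of the genes then switched on encode inhibitors of the pathway, among them IκBα (Nfkbia) and A20 (Tnfaip3), which makes them widely used readouts of NF-κB activity. In epithelia this system links microbial and mechanical stimuli to chemokines and other defense genes.

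NF-κB dimers recognize a 10-base element, the κB consensus, and several of the 10 genes carry it close to their start. Promoters from 250 bases before to 50 bases after the start were taken from RefSeq (GRCm38.p6) and both strands were searched. The table held 10 promoters for 7 of the 10 genes, and Nfkbiz, Nfkb1 and Relb were not among them. A match was found in 7 of these 10 promoters and in 5 of the 7 genes, whereas 8.46% of all 32851 promoters and 9.55% of all 27025 genes in the table held one. The pattern searched for allows different bases at some positions, so the letters of a match differ between genes. Matches of the 5 genes are shown written on the strand of the gene with the match in capitals, and overlapping matches joined:
Nfkbia (chr12:55492657-55492686, minus strand): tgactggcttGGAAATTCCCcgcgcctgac
Tnfaip3, distal (chr10:19015516-19015545, minus strand): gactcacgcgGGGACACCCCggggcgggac
Tnfaip3, proximal (chr10:19015403-19015432, minus strand): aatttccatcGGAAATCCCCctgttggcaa
Rel (chr11:23771042-23771070, minus strand): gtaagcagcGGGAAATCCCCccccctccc
Nfkbie (chr17:45555584-45555613, plus strand): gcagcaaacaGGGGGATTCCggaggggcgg
Nfkb2, distal (chr19:46304689-46304717, plus strand): gatcgtcacGGGAATTCCCCccctcgggg
Nfkb2, proximal (chr19:46304716-46304745, plus strand): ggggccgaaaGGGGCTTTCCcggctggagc

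Counted from the annotated start, the capitals cover positions -29 to -20 in Nfkbia, -92 to -82 in Rel and -106 to -97 in Nfkbie. In Tnfaip3 they cover -125 to -116 and -12 to -3 in 1 of its 2 promoters, and the other Tnfaip3 promoter held no match. In the most upstream of the 3 Nfkb2 promoters they cover -39 to -29 and -11 to -2, and the other 2 Nfkb2 promoters also held matches. The promoters of Tnf and Nfkbib had no match in this window. A match is a string of letters and not a measured binding site. Across the table, the 1549 tested genes with a match had a median log2 difference between DT and PBS mice of -0.02, and the 11363 without one had a median of -0.0015.

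The tissue carried the markers of its label. The keratins Krt13 and Krt4 had 860500 ± 37640 and 527800 ± 64470 normalized counts in PBS mice (SD, n = 5). The Langerhans or dendritic cell markers were far lower, with a sum over 7 genes, led by Cd74, between 1526 and 4062 in PBS mice and between 1036 and 2258 in DT mice. Cd207, which encodes langerin, had 23.9 ± 13.4 normalized counts in PBS mice and 18.4 ± 1.99 in DT mice (n = 6), and its difference was not past the threshold (adjusted p = 0.853, limma). Since LCs are reported to have returned by adulthood, Cd207 in these adults cannot show whether the earlier depletion had worked. Between 17509328 and 24325513 reads per mouse lay on genes. In bulk tissue, fewer cells of a type and less RNA per cell cannot be told apart.

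The members spanned a wide range of levels, with IκBα highest. Levels can be set side by side only per length, so normalized counts were divided by the length of the longest annotated transcript in kilobases. On this scale Nfkbia had a level of 1310 ± 177 in PBS mice and 1670 ± 207 in DT mice. Nfkb1, which encodes a precursor processed to a DNA-binding subunit, came next with 486 ± 63.6 and 524 ± 26.7. Nfkbiz and Nfkbib followed with means over all 11 mice of 303 and 249, and their ranges overlapped.

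The subunit genes other than Nfkb1 lay lower. Nfkb2 and Rel had means of 94.9 and 79.5 per kilobase with overlapping ranges, although Nfkb2 was the higher in 11 of 11 mice. Relb and Tnfaip3, with 36.8 and 31.3, also overlapped, and Relb was the higher in 8 mice. Tnf with 13.5 and Nfkbie with 6.83 closed the order, and Tnf was the higher in 9 mice. Dividing by all exons merged left Nfkbia first but moved Nfkb1 from 507 to 174 per kilobase, below Nfkbiz and Nfkbib, because its merged exons add up to 12061 bases against 4149 in its longest transcript. The same division brought Nfkb2 to 79.6, beside 79.5 for Rel, so the lead of Nfkb2 over Rel depended on the length used. These levels hold for reads drawn from the whole transcript, as the labelled kit makes them. The authors trimmed by the guide of a 3′-tag kit, for which a division by length would not apply.

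**Figure D1:**
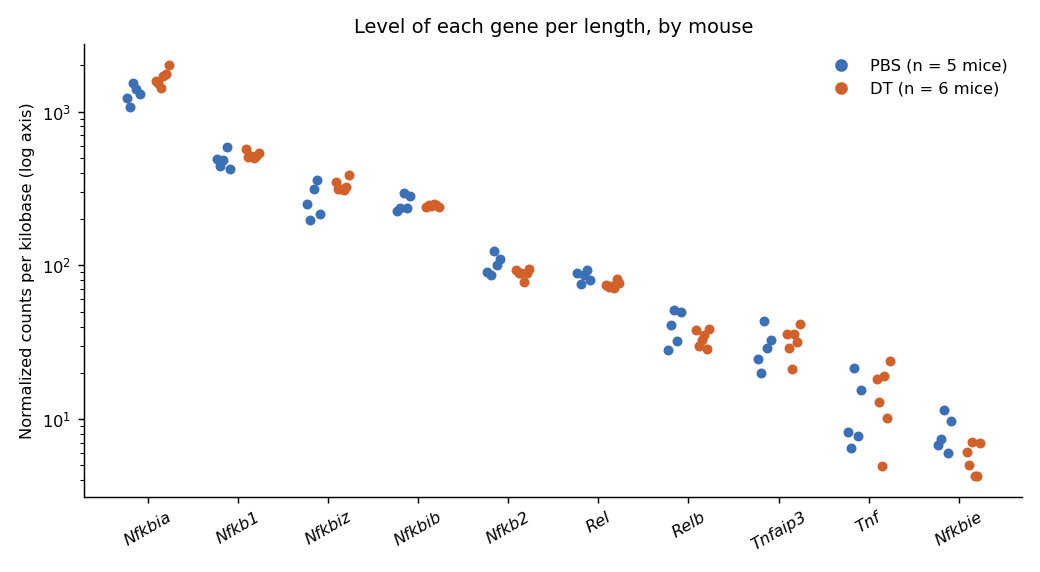
Normalized counts per kilobase of longest transcript (log axis) for each gene, with 1 point per mouse (PBS blue, DT orange) and genes ordered by their mean. Nfkbia lies above all others in every mouse, while Nfkbiz and Nfkbib, Nfkb2 and Rel, Relb and Tnfaip3, Tnfaip3 and Tnf, and Tnf and Nfkbie overlap.

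Between DT and PBS mice, 0 of the 10 genes passed the threshold (limma, adjusted p under 0.1), and in the same fit 0.558% of all 19170 genes passed (60 genes or 0.313% higher after DT, and 47 genes or 0.245% lower). Adjusted p-values of the 10 genes lay between 0.164 and 0.836. At an unadjusted p under 0.05 there were 5 of 10, against 11.5% of all genes. Of these, 2 were higher after DT, against 5.31% of all genes, and 3 were lower, against 6.19%. The groups overlapped for each of the 10 genes, and the groups did not overlap for 2.11% of the 13477 genes that averaged 10 or more normalized counts, as all 10 did. Of the 10 log2 differences 5 were above and 5 below 0, with a median of 0.03 beside -0.01 for all genes. No other tool was run on the 10 genes.

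**Figure D2:**
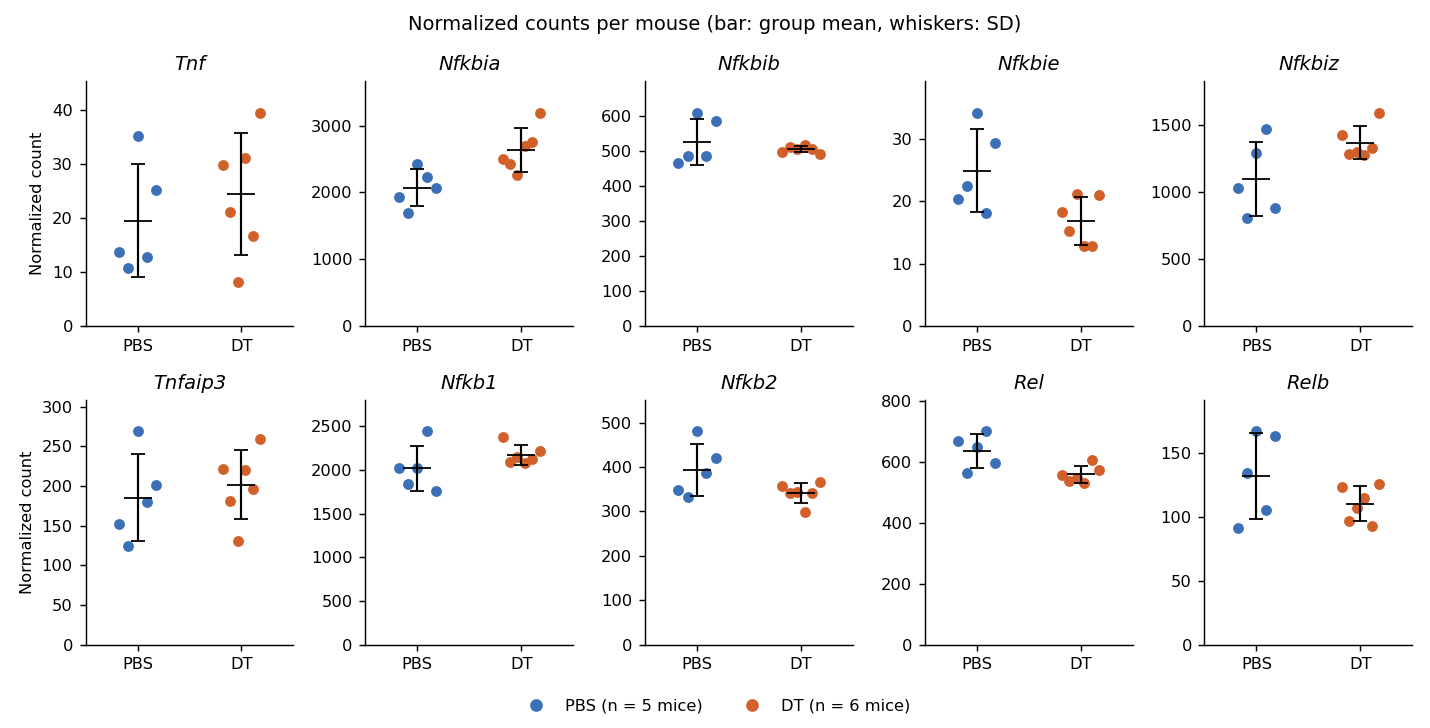
Normalized counts (linear axes from 0) of the 10 genes in the 5 PBS mice (blue) and 6 DT mice (orange), 1 point per mouse, with the group mean as a bar and the SD as whiskers. The groups overlap in every panel, and in Nfkbib, Nfkbiz, Nfkb1, Nfkb2, Rel and Relb the DT points lie closer together than the PBS points.

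Tnf (ENSMUSG00000024401, GRCm38 chr17:35199381-35202007), the ligand, was at 13.6, 10.7, 35.2, 12.7 and 25.2 normalized counts in PBS mice 1 to 5. In DT mice the lowest value was 8.1, the median 25.5 and the highest 39.4. The groups covered nearly the same range. The log2 difference of DT minus PBS was 0.30 (SE 0.38), with a 95% interval from -0.51 to 1.10 and adjusted p = 0.818. It rested on 8 to 45 reads per mouse, and the SD that counting alone gives, 4.45 normalized counts in PBS mice and 4.91 in DT mice, was smaller than the measured 10.4 and 11.3.

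Among the inhibitors, Nfkbia and Nfkbiz had higher means after DT and Nfkbie a lower mean. Nfkbia (ENSMUSG00000021025, chr12:55489410-55492647), whose protein retains NF-κB in the cytoplasm, was at 1937, 1698, 2431, 2228 and 2065 normalized counts in PBS mice. The DT mice lay between 2262 and 3191, with a median of 2598, and each of the 6 was above the PBS mean. The DT values began within the PBS range, with 4 of 6 above the highest PBS mouse. Its log2 difference of 0.35 (SE 0.09) was the one with the smallest p of the 10 genes (unadjusted p = 0.0016, adjusted p = 0.164, limma). It passed the threshold without PBS 3 (adjusted p = 0.0841) and with mice weighted by their variability (adjusted p = 0.0762).

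Nfkbiz (ENSMUSG00000035356, chr16:55811375-55838899) encodes IκBζ, a nuclear IκB protein that can promote transcription of a subset of NF-κB target genes. It was at 1035, 807.5, 1291, 1475 and 885.6 normalized counts in PBS mice, and between 1279 and 1592 with a median of 1316 in DT mice. The DT values were all above the PBS mean but began within the upper part of the PBS range, where PBS 4 and PBS 3 lay. The log2 difference was 0.35 (SE 0.13, adjusted p = 0.290), and without PBS 4 it was 0.46 with adjusted p = 0.0801.

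Nfkbie (ENSMUSG00000023947, chr17:45555703-45563169) encodes IκBε, another cytoplasmic inhibitor. It was at 20.4, 22.4, 34.2, 18.2 and 29.4 normalized counts in PBS mice, and between 12.8 and 21.2 with a median of 16.8 in DT mice. All DT mice lay below the PBS mean and 3 of 6 lay below the lowest PBS mouse. Its log2 difference of -0.52 (SE 0.23) had adjusted p = 0.381, and it rested on 12 to 34 reads per mouse.

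Nfkbib (ENSMUSG00000030595, chr7:28758251-28767512) encodes IκBβ. It was at 465.1, 485.9, 607.5, 485.4 and 585.5 normalized counts in PBS mice and between 491.8 and 516.4 with a median of 505.0 in DT mice. The DT mice fell in a narrow band inside the PBS range, with a coefficient of variation of 1.80% against 12.5% in PBS mice. The log2 difference was -0.05 (SE 0.07, adjusted p = 0.836), with a 95% interval from -0.20 to 0.10. Nfkbib overlaps Ccer2 and Sirt2 on the other strand, and whether reads were counted by strand is not given in the sources used here.

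Tnfaip3 (ENSMUSG00000019850, chr10:19000910-19015657) encodes A20, which removes activating ubiquitin chains from signaling proteins upstream of the IκB kinases. It was at 151.6, 124.4, 268.6, 180.3 and 201.5 normalized counts in PBS mice and between 131.0 and 259.0 with a median of 208.2 in DT mice. The DT range lay inside the PBS range. The log2 difference was 0.14 (SE 0.18, adjusted p = 0.829), with a 95% interval from -0.25 to 0.53.

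Of the subunit genes, Nfkb1 had a slightly higher mean after DT and Rel, Nfkb2 and Relb had lower means. Rel (ENSMUSG00000020275, chr11:23736847-23770970) encodes c-Rel, a subunit with a transactivation domain that is best known from lymphocytes. It was at 668.7, 562.7, 648.7, 700.3 and 598.1 normalized counts in PBS mice and between 531.4 and 606.4 with a median of 552.0 in DT mice. All DT mice lay below the PBS mean and 4 of 6 below the lowest PBS mouse. The log2 difference was -0.18 (SE 0.06, adjusted p = 0.283).

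Nfkb1 (ENSMUSG00000028163, chr3:135584655-135691547) was at 2028, 1840, 2018, 2442 and 1761 normalized counts in PBS mice and between 2076 and 2375 with a median of 2139 in DT mice. Each DT mouse was above the PBS mean, but PBS 4 was the highest of all mice. The log2 difference was 0.12 (SE 0.07, adjusted p = 0.570).

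Nfkb2 (ENSMUSG00000025225, chr19:46304320-46312385) and Relb (ENSMUSG00000002983, chr7:19606217-19629438) encode the partners of the noncanonical branch, which receptors such as the lymphotoxin β receptor and RANK engage. Nfkb2 was at 347.4, 333.3, 479.8, 386.1 and 420.7 normalized counts in PBS mice and between 298.4 and 366.7 with a median of 341.9 in DT mice. Its log2 difference was -0.20 (SE 0.09, adjusted p = 0.417). Nfkb2 overlaps Psd on the other strand.

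Relb was at 91.7, 134.1, 167.0, 105.6 and 163.7 normalized counts in PBS mice and between 93.2 and 126.0 with a median of 110.8 in DT mice. The log2 difference was -0.23 (SE 0.15, adjusted p = 0.594). For both genes the DT mice lay below the PBS mean, and PBS 3 and PBS 5 were the highest mice.

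**Figure D3:**
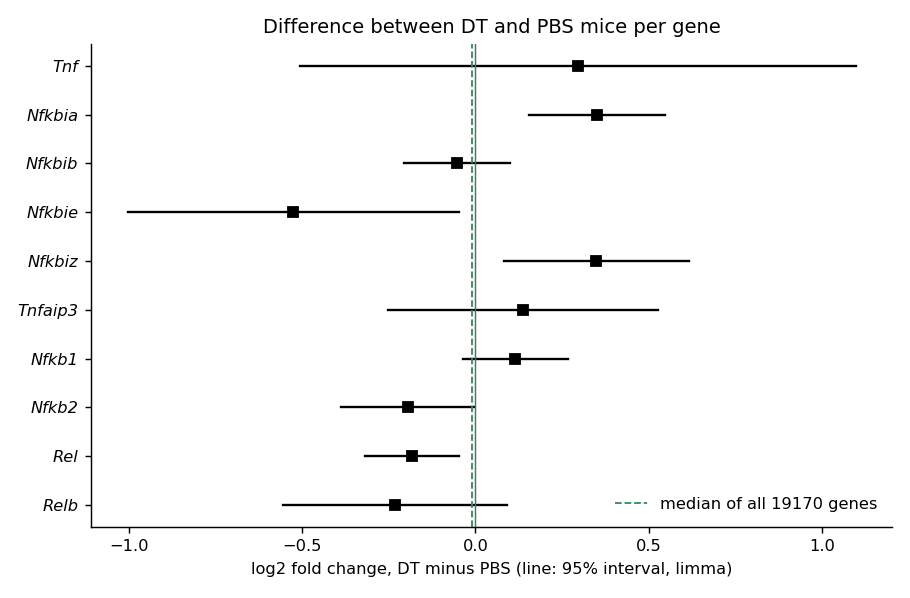
The log2 difference of DT minus PBS on the log2(normalized count + 1) scale (squares) with its 95% interval from limma (lines) for each gene, and the median of all 19170 genes (dashed). Nfkbia, Nfkbiz, Nfkbie, Nfkb2 and Rel have intervals that leave out 0 before any adjustment for the number of genes tested, and Tnf has the widest interval, from -0.51 to 1.10.

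The balance between members was then compared within each mouse, since a ratio of 2 genes does not depend on the scaling between mice. The ratio was tested for 6 pairs of IκB genes and 6 pairs of subunit genes with an exact permutation test (two-sided, enumerating every way to divide the mice 5 to 6), and p-values were adjusted over the 12 pairs. The adjusted p was under 0.05 for 5 of the 12 pairs. The pairs share genes, so the 12 ratios are not independent and the 5 are not separate results. These p-values belong to pairs of genes that were chosen with earlier results of these data known.

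In the IκB group, the ratio of Nfkbia to Nfkbib was 3.49 to 4.59 in PBS mice and 4.48 to 6.49 in DT mice, and its log2 difference was 0.40 (SE 0.11, exact p = 0.00649, adjusted p = 0.026). The ratio of Nfkbia to Nfkbie was 70.3 to 122 in PBS mice and 107 to 217 in DT mice, a log2 difference of 0.88 (SE 0.21, exact p = 0.00649, adjusted p = 0.026). Nfkbie relative to Nfkbiz was lower after DT, by a log2 difference of -0.87 (SE 0.27, exact p = 0.0152, adjusted p = 0.0364). Each of these 3 ratios lay on the same side of the PBS mean in 6 of 6 DT mice, as did Nfkbib to Nfkbie (log2 difference 0.47, exact test adjusted p = 0.0563) and Nfkbib to Nfkbiz (-0.40, exact test adjusted p = 0.0853), which did not pass. The ratio of Nfkbia to Nfkbiz differed by 0.00 on the log2 scale, with SE 0.12 (exact p = 0.981).

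In the subunit group, Nfkb1 to Rel was the one pair of the 12 whose groups did not overlap. The ratio was 2.94 to 3.49 in PBS mice and 3.52 to 4.26 in DT mice, a log2 difference of 0.30 (SE 0.06, exact p = 0.00433, adjusted p = 0.026). The ratio of Nfkb1 to Nfkb2 was 4.18 to 6.33 in PBS mice and 6.06 to 6.96 in DT mice, a log2 difference of 0.31 (SE 0.13, exact p = 0.0108, adjusted p = 0.0325). The 3 ratios among Rel, Nfkb2 and Relb differed by -0.01 to 0.05 on the log2 scale, with SE from 0.11 to 0.22 and adjusted p = 0.963 in the exact test.

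The calls for the ratios changed when mice were left out. Without PBS 1, 2, 3 or 5 or DT 1, 2, 4 or 5 the count of pairs was 0, without DT 3 or DT 6 it was 4, and without PBS 4 it was 7. In these smaller sets the smallest p that an exact test can give rises to 0.00476 or 0.00794. The log2 difference of Nfkb1 to Rel stayed between 0.27 and 0.33 over these sets, and that of Nfkbia to Nfkbie between 0.79 and 1.00.

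**Figure D4:**
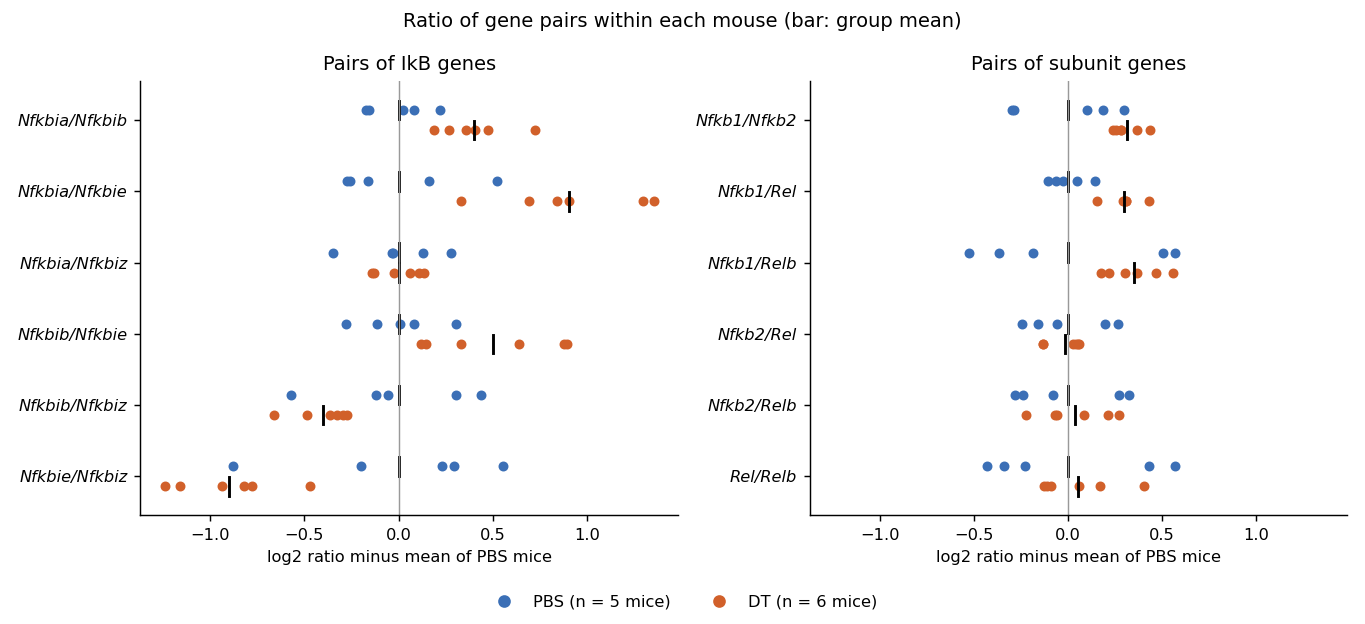
The log2 ratio of 2 genes within each mouse, minus the mean of the PBS mice, for 6 pairs of IκB genes (left) and 6 pairs of subunit genes (right), with PBS mice in blue, DT mice in orange and bars at the group means. The 6 DT mice lie to 1 side of the PBS mean for the 5 pairs past the threshold and also for Nfkbib/Nfkbie, Nfkbib/Nfkbiz and Nfkb1/Relb, which did not pass, and on both sides of it for the other pairs.

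How the members varied among mice of the same group was described by correlation. Deviations from the group mean on the log2 scale were correlated over the 11 mice for 45 pairs, with 100000 permutations within groups. Tnf and Tnfaip3 were the pair past an adjusted p of 0.05 by both measures, with Pearson r = 0.93 (permutation p = 0.0001, adjusted p = 0.0045) and Spearman rho = 0.91 (permutation p = 0.00108, adjusted p = 0.0486). Without PBS 3 and DT 3, the mice farthest from the median of Tnf, r was 0.87, and r was 0.92 in PBS mice and 0.97 in DT mice taken alone. Nfkbia and Tnfaip3 had r = 0.89 (permutation p = 0.00171, adjusted p = 0.0385) and rho = 0.81 (permutation p = 0.00803, adjusted p = 0.12), and r = 0.84 without PBS 2 and DT 6.

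**Figure D5:**
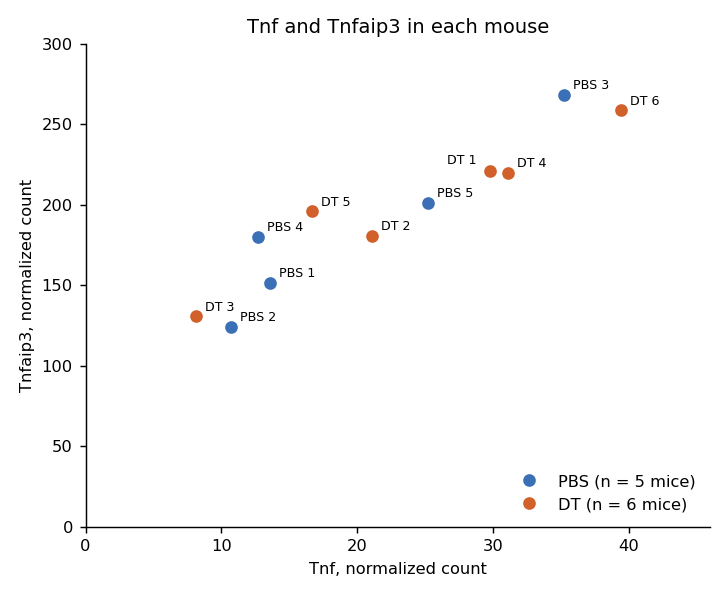
Normalized counts of Tnf (horizontal axis) against Tnfaip3 (vertical axis), 1 labelled point per mouse, PBS in blue and DT in orange. PBS 3 and DT 6 are high in both genes, PBS 2 and DT 3 are low in both, and the PBS and DT mice lie along the same band.

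Much of this variation lay among the PBS mice. The SD on the log2 scale was larger after PBS than after DT in 9 of the 10 genes, all but Tnf, and in 69.3% of those 13477 genes. PBS 3 and PBS 5 were the 2 highest PBS mice for Tnf, Nfkbib, Nfkbie, Tnfaip3, Nfkb2 and Relb, that is 6 of the 10 genes against 23.2% of the 13477. This pair of mice was not planned and was named after the values were seen, so the count is a description only. The summed markers of Langerhans or dendritic cells were also highest in PBS 3 and PBS 5, at 4062 and 3119 against 1526 to 2012 in the other PBS mice. So were those of macrophages or monocytes (509.9 and 449.1 against 302.1 to 356.6), of T or NK cells (57.3 and 44.1 against 11.8 to 33.9) and of neutrophils (2056 and 3383 against 687.5 to 860.0), the last led by S100a9 and S100a8, which keratinocytes also make. Ly6g, Mpo, Elane and Retnlg, the markers most particular to neutrophils, were listed without a value. The keratinocyte sum was highest in PBS 3 and PBS 5 as well (1894000 and 2001000 against 1805000 to 1890000), and the sums of fibroblast, endothelial and mast cell markers were not. The part of these cells in the values of the 6 genes was not tested.

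Beyond the 10 genes, the machinery of the pathway was represented by 51 listed genes, chosen with earlier results known, of which 49 had values. Of these 1 was higher after DT past the threshold and 0 were lower, against 0.313% and 0.245% of all genes, and the median log2 difference was -0.01. At an unadjusted p under 0.05 there were 4 higher and 6 lower, against 5.31% and 6.19% of all genes. The gene past the threshold was Zfp36, which encodes tristetraprolin, an RNA-binding protein that speeds the decay of Tnf mRNA. Zfp36 was at 3811, 2862.8, 3423.8, 5573.2 and 2240.1 normalized counts in PBS mice and between 6209.7 and 9132.5 in DT mice. All DT mice lay above all PBS mice, and the log2 difference was 1.10 (SE 0.17, adjusted p = 0.0093, limma).

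In the other parts of the pathway no gene passed. Of 10 TNF-family ligands and receptors with values, 8 had log2 differences below 0 and the median was -0.53. Some of these rest on few reads, such as Ltb (11.1 normalized counts in PBS mice and 5.14 in DT mice) and Cd40 (5.75 and 2.98). The abundant Tnfrsf1a (2915 and 2857) and Ltbr (804.0 and 799.9) had log2 differences of -0.02 and 0.01. These 4 genes were named after their values were seen. Markers of several immune cell types also had log2 differences below 0. For Langerhans or dendritic cells these were 8 of 8 genes (median -0.46), among them Epcam, which is also a keratinocyte marker. For macrophages or monocytes they were 7 of 8 (-0.41), and for T or NK cells 6 of 7 with values (-0.35). In these 3 lists 0 passed the threshold, and 1, 1 and 0 were lower at an unadjusted p under 0.05, against 6.19% of all genes. Of 4 neutrophil markers with values, 2 were below 0 (median 0.16). Fibroblast markers were below 0 in 4 of 6 genes (-0.45) and mast cell markers in 3 of 3 with values (-0.325). Endothelial markers were below 0 in 3 of 5 (-0.07) and keratinocyte markers in 2 of 8 (0.03). The part of these cells in the values of the ligands and receptors was not tested. The smallest p-values there belonged to Tnfsf13b, which encodes the B cell factor BAFF, with 6.64 ± 1.79 normalized counts in PBS mice and 2.78 ± 2.11 in DT mice (adjusted p = 0.242), and Tnfrsf11a, which encodes RANK, with 51.2 ± 12.6 and 33.7 ± 5.66 (adjusted p = 0.284). Without PBS 4, Tnfrsf11a passed the threshold. Lta and Tnfsf11 were listed without a value.

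Of 22 adaptors and kinases, the median was 0.00, and the smallest p-values belonged to Ripk1, a kinase at the TNF receptor, with 595.5 ± 30.1 and 674.8 ± 52.4 (adjusted p = 0.290), and Traf1, an adaptor gene, with 11.9 ± 5.01 and 5.83 ± 2.74 (adjusted p = 0.355). Of the 5 remaining subunit and IκB-family genes, Bcl3, which encodes a nuclear IκB protein, had 420.0 ± 92.4 and 328.1 ± 41.0 (adjusted p = 0.305), and Nfkbid, which encodes another, had 29.0 ± 6.63 and 21.3 ± 7.75 (adjusted p = 0.521). Rela, the subunit gene not among the 10 and named here after its values were seen, had 1180 ± 118 and 1219 ± 37.0 (adjusted p = 0.799).

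Of 37 genes listed as NF-κB targets, 35 had values, and the median log2 difference was -0.08. Past the threshold 1 was higher after DT and 0 were lower, against 0.313% and 0.245% of all genes. At an unadjusted p under 0.05 there were 3 higher and 1 lower, against 5.31% and 6.19% of all genes. The gene past the threshold was Gadd45b, a stress-induced gene that restrains JNK signaling. It was at 454.9, 466.5, 489.8, 474.4 and 470.1 normalized counts in PBS mice and between 539.9 and 760.5 in DT mice, so that the groups did not overlap, and the log2 difference was 0.38 (SE 0.08, adjusted p = 0.0551, limma). Gadd45b missed the threshold without PBS 1, PBS 2, DT 1, DT 4 or DT 5, with adjusted p between 0.107 and 0.144.

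None of the 14 chemokine and cytokine genes with values passed, and at an unadjusted p under 0.05 there were 0, against 11.5% of all genes. Il6 was listed without a value. Ccl2, a monocyte chemokine, had 5.63 ± 5.46 normalized counts in PBS mice and 1.05 ± 1.26 in DT mice (adjusted p = 0.447). Csf2, which encodes GM-CSF, had 0.383 ± 0.526 and 1.96 ± 1.96 (adjusted p = 0.491). Both lie at a depth of a few reads per mouse.

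Of the immediate early genes, which are switched on within minutes by many stimuli, tissue handling among them, most of those listed were higher after DT. Of 12 such genes 9 rose past the threshold, where 0.313% of all genes did. These were Fos, Jun, Junb, Egr1, Egr2, Atf3, Ier2, Dusp1 and Btg2, and the median log2 difference of the 12 was 1.35. Fosb and Nr4a1 were higher but missed the threshold (adjusted p = 0.118 for each, limma). Egr3 did not rise (log2 difference -0.04, adjusted p = 0.955, limma). Fos had 4857 ± 2807 normalized counts in PBS mice and 14230 ± 2598 in DT mice (log2 difference 1.70, SE 0.26, adjusted p = 0.0090, limma). PBS 4 was the highest PBS mouse for Fos, at 9475.3, and for Ier2, at 3242.8, and also for Zfp36, Nfkbiz, Nfkb1 and Rel. Their part in the values of Nfkbia, Nfkbiz and Zfp36 was not tested.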

How the data were processed

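Gingival epithelium of 11 langerin-DTR mice was profiled by RNA sequencing. After trimming with cutadapt, the authors used TopHat for alignment (GRCm38) and htseq-count for gene counts, removed genes whose counts summed to under 10, and scaled by DESeq2 size factors. The deposited values are these normalized counts. The labels list GRCm39 and other versions (cutadapt 2.10, TopHat2 2.1.1, HTSeq 2.01, DESeq2 1.36.0), and which set made the table is not known. The labels name a stranded whole-transcript kit. Of 55414 genes listed, 36244 have no value. Depth was recovered from the step between low values, since 100% of them came out as whole reads (tolerance 0.1). Averaged over genes with a mean of 100 or more reads, the squared difference of each same-group pair was at least 8.5 times the counting variance. No library was therefore counted as a repeat. The labels do not say more about separate animals than the mouse numbers, and p-values measure the spread between these mice.

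Groups came from the labels and replicate numbers from the titles, where the library name of PBS 5 carries the number 6. DT was compared with PBS by limma 3.58.1 (R 4.3.3, eBayes with trend) after taking log2(normalized count + 1), which understates changes of low genes, and p-values were adjusted over 19170 genes by Benjamini-Hochberg, with a call at an adjusted p under 0.1. Ratios were tested by exact permutation and correlations by permutation (Python 3.11.15, numpy 2.4.6). Positions and lengths came from GENCODE mouse release 21 (GRCm38). Alternatives were pseudocounts of 0.5 and 5, only genes averaging 10 or more, TMM or quantile scaling, array weights, a replicate block and each mouse left out. Named genes are the 10 members, list genes past the threshold, the 2 genes with the smallest p of a list part without any, and leading markers or those without a value. The result of 1 marker list is not reported here. The members and lists were chosen with earlier results of these data known.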

Additional observations from a re-analysis of the deposited data

How the results depend on the processing

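Count models (edgeR and DESeq2 on reads recovered from the values), which had been planned, were not run. All values came out as whole reads, but 1 read is worth 1.0058 in PBS 3 and 1.0073 in DT 3, too close to 1 for the check used here to accept the reads as recovered. The depths, reads per mouse and counting SDs in the text rest on these same reads. Of the 10 genes, 7 kept their direction and stayed short of the threshold in 19 of 19 alternatives (other pseudocounts, filter, scaling, array weights, 2 replicate blocks, each mouse left out), and the exceptions were Nfkbia, Nfkbiz and Nfkbib. The number of the 10 genes past the threshold was 1 with array weights and 0 to 1 when a mouse was left out, and the log2 difference of Nfkbib ranged from -0.0939 to 0.00229, above 0 only without PBS 3.

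Over all genes, 107 passed, 189 with array weights and 27 to 259 when a mouse was left out (29 without PBS 1, 40 without PBS 2, 170 without PBS 4, 259 without PBS 5, 61 without DT 1, 52 without DT 3, 50 without DT 4, 27 without DT 5 and 30 without DT 6). Pathway genes past the threshold numbered 1 to 2 and target genes 0 to 2 when a mouse was left out. Of the 12 ratios, 0 to 7 passed when a mouse was left out. Ratios close to equal in both groups crossed 0 when a mouse was left out, from -0.0848 to 0.0716 for Nfkbia/Nfkbiz, -0.0743 to 0.0528 for Nfkb2/Rel, -0.0348 to 0.116 for Nfkb2/Relb and -0.0572 to 0.190 for Rel/Relb (log2). The causes were not tested.

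The labels link mice of the same number by nothing beyond that number, and by it DT 6 has no partner. Their deviations correlated between -0.233 and 0.324, which cannot show whether the mice were paired. With the number as a replicate block 35 genes passed in limma, 0 of the 10 genes and 0 target genes (5 and 4 at an unadjusted p under 0.05), and Gadd45b had adjusted p = 0.247. By limma on the ratios with this replicate block 3 of the 12 ratios passed, Nfkbib/Nfkbie among them (adjusted p = 0.0133), while Nfkbia/Nfkbib, Nfkb1/Nfkb2 and Nfkb1/Rel did not (adjusted p = 0.0786 for each), and Nfkbia/Nfkbiz differed by -0.0107. The library name pairs PBS 5 with DT 6 (r = -0.0477), and a replicate block by library name, chosen after seeing the data, called 0 genes, 0 of the 10 genes, 0 pathway genes and 0 target genes in limma (1404 genes and 3 of the 10 at an unadjusted p under 0.05), with Zfp36 at adjusted p = 0.123. By this block the same 3 of the 12 ratios passed, and Nfkbia/Nfkbiz, Nfkb2/Rel, Nfkb2/Relb and Rel/Relb differed by -0.0199, 0.0104, -0.0103 and -0.0206. Scaling shifted the median of all genes by less than 0.1 on the log2 scale. Nfkbie, Csf2 and Ccl2 rest on few reads.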

Other observations

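The 6 DT mice differed in Nfkbib by less than counting gives on average. Their SD was 9.09 normalized counts, whereas the SD from counting at their depth is 22.3, and in PBS mice the SD was 65.5 beside a counting SD of 23.1. No test was made of this, and it was noticed after the values were seen.

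Summed markers of 4 other cell types overlapped between the groups. Summed keratinocyte markers lay between 1805000 and 2001000 in PBS mice and between 1803000 and 2063000 in DT mice. Fibroblast markers, led by Dcn, lay between 1252 and 1450 and between 1109 and 1594. Endothelial markers, led by Pecam1, lay between 71.3 and 110.6 and between 60.4 and 137.7. Mast cell markers, nearly all Kit, lay between 269.7 and 395.5 and between 170.7 and 303.2, with Tpsb2 and Fcer1a listed without a value. Trac and Trdc of the T cell list were also listed without a value.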
